A study of Mus musculus with 17 samples.

Results

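miR-143 and miR-145 are the best known miRs of smooth muscle, and their levels were followed in mouse kidney after ischemia-reperfusion injury (IRI) and after sham surgery. Both were chosen by name, as the array rows and the spots of mmu-miR-143 and mmu-miR-145, so the members are 2 of the 569 mouse miRs on the array, each printed as 6 spots. Both were among the 162 miRs that reached a normalized intensity of 200 in at least 1 sample and were tested. The lowest normalized level of either member in any of the 17 samples was 902, so neither passed this filter through 1 group alone.

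The kidneys came from C57/BL6 mice that were 10 to 12 weeks old. The IRI group had 30 minutes of warm ischemia of 1 kidney, the sham group had the operation without ischemia, and naive mice had no operation. Kidneys of both operated groups were sampled at 8 times, namely days 1, 3, 5 and 7 in the first week, days 10 and 14 in the second, and later days 21 and 30. Each group had 1 sample at each time, and there was 1 naive sample. Every sample was total RNA from a pool of 3 mice. IRI RNA (labelled with Cy3) and sham RNA (labelled with Cy5) of the same day shared 1 of the 9 arrays, dyes were never swapped, and naive RNA was alone in Cy3 on the remaining array. There was therefore no replicate within a day. The 8 days served as the samples of an arm, p-values measured the spread of the days around a mean or around a straight line over log2 of the day, and the number of arrays limited the precision.

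The 2 miRs come from neighbouring genes and are cut from a shared primary transcript. In vessels they are most abundant in smooth muscle cells and other mural cells, the contractile cells that wrap arteries and capillaries, and they help to hold these cells in the contractile state by lowering regulators such as KLF4, KLF5 and ELK1. In the kidney such cells lie in arteries, arterioles and the mesangium, and pericytes line the capillaries between tubules. In the gene table of mouse assembly GRCm38.p6, Mir143 and Mir145a had 0 genes listed between them. No other of the 568 mouse miRs on the array shared the seed (bases 2 to 8, which pair with targets) of miR-143, and none shared that of miR-145. The nearest array sequence was 7 mismatches away for miR-143 (miR-322*) and 10 mismatches away for miR-145 (miR-582-5p), so no entry lay within the 3 mismatches set for possible shared signal.

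The sequences of 5 other miRs are shown because the results below turn on their profiles: miR-24 and miR-26a had the IRI/sham profiles most like that of miR-143, miR-451 and miR-377 those most like that of miR-145, and miR-195 was the other miR called after sham surgery. They are RefSeq mature sequences on GRCm38.p6, written 5′ to 3′ with the seed in capitals, and each was the same as the sequence given for the array. They lie at chr13:63301251-63301272 on the + strand (miR-24, gene entry Mir24-1), chr10:126995543-126995564 on the + strand (miR-26a, Mir26a-2), chr12:109740553-109740574 on the + strand (miR-377, Mir377), chr11:78073186-78073207 on the + strand (miR-451, Mir451a) and chr11:70235062-70235082 on the + strand (miR-195, Mir195a). All 5 seeds differ from one another.
miR-24: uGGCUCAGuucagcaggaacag
miR-26a: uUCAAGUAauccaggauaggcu
miR-377: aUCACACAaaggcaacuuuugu
miR-451: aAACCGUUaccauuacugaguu
miR-195: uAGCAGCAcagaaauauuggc

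Both members were measured well in all operated samples and lay close to background in the naive one. Their spots lay above background (the median of the 250 empty spots of the channel plus 3 median absolute deviations) in 17 of 17 samples, and the spot-to-spot CV on an array was between 1.59% and 15.0% in IRI channels. In sham channels that CV was between 3.43% and 11.2%. The naive channel was the dimmest: its mean miR signal over the empty spots was 209, against 1114 to 1412 in IRI and 525 to 1057 in sham channels, where days 10 and 30 were lowest. In the naive channel the mean spot intensity was 836 for miR-143 and 812 for miR-145, only 1.64 and 1.59 times the median of the empty spots. miR-145*, the passenger strand of the miR-145 hairpin, was above background in 5 of 17 samples (the naive sample, 3 IRI samples and 1 sham sample), so its course could not be followed.

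After sham surgery miR-145 rose over the 30 days. Its normalized intensity in sham kidneys began at 902 (day 1) and 1270 (day 3), stayed between 1629 and 2006 through the next 3 times (2006, 1629 and 1726 for days 5, 7 and 10), and then reached 4339 (day 14), 4862 (day 21) and 8169 (day 30). Days 14, 21 and 30 all lay above every earlier day, and day 30 was 9.06-fold above day 1 (3.96-fold in scanner intensity before normalization). The slope over log2 of the day was 0.63 log2 units per doubling of the day (SE 0.10, 95% interval 0.39 to 0.86, n = 8 days), or 1.55-fold per doubling. It passed the test with limma at an adjusted p of 0.0212 over the 162 miRs, with an exact permutation p of 0.00124 over the days (two-sided, the smallest possible being 4.96e-05). This was the highest sham slope of the 162 miRs. miR-145 was the sole miR called as rising, so it alone made up the 0.617% of tested miRs called in that direction. The mean of the late days (14, 21 and 30) was 4.22-fold above that of the early days (1, 3 and 5) with no overlap, and 8.64% of tested miRs had all late sham days above all early ones.

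The call of this rise depended on single days. Leaving out 1 day at a time gave slopes of 0.54 to 0.79 with adjusted p between 0.0132 and 0.134 by limma, and the call held in 3 of 8 cases. The call was lost without day 3 (adjusted p = 0.0845), day 5 (0.0537), day 14 (0.0682), day 21 (0.0945) or day 30 (0.134). The sham pool of day 30 stood apart from the others in miR-122, the miR of hepatocytes, which was singled out after its values were seen. Its normalized level was 3092 there, against 96.1 to 103.9 on the other 7 sham days and 58.1 to 103.9 in IRI kidneys, and the scanner intensity was 1648 against 37.9 to 46.0. Days 14 and 21, on which miR-122 was at its usual low level, were still above all earlier days for miR-145, and without day 30 the miR-145 slope was 0.54. Where this miR-122 signal came from, and what it has to do with the miR-145 level of day 30, was not tested. Of the 162 miRs, 28 had their highest sham level on day 30.

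Before normalization the mean scanner intensity of miR-145 in the sham channel was 839, 1537, 1583, 1259, 625, 5139, 5435 and 3319 on the 8 days in order, so days 14, 21 and 30 were again the 3 highest, with day 30 below days 14 and 21. On the authors' own processed values the sham level of miR-145 ran from 876 to 8748 and the slope was 0.68 (adjusted p = 0.0265). The slope missed the threshold without quantile normalization across arrays (0.55, adjusted p = 0.304), with values under 200 raised to that level (0.63, adjusted p = 0.0727) and with all 569 miRs tested (0.63, adjusted p = 0.057).

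miR-143, cut from the same transcript, showed no such course in sham kidneys. Its normalized intensity was 1642 (day 1), 1593 (day 3) and 1405 (day 5), then 2242 (day 7) and 3354 (day 10), then 1362 (day 14), 1362 (day 21) and 1419 (day 30). On this scale days 7 and 10 were its high days, and the late days overlapped the early ones (mean 0.895 of the early level). The slope was -0.03 per doubling of the day (SE 0.11, 95% interval -0.27 to 0.22, limma adjusted p = 0.997, exact permutation p = 0.812). The interval still allows a fall to -0.27 or a rise to 0.22 per doubling, and on the authors' processed values the slope was 0.04. The miR-143 scanner intensity in the sham channel was 1492, 2035, 1058, 1713, 1215, 1697, 1282 and 659 in order of the days, with day 30 the lowest. Day 10 was thus not a high day before normalization. There day 3 was the highest, and day 10 lay below days 1, 3, 7, 14 and 21.

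**Figure D1:**
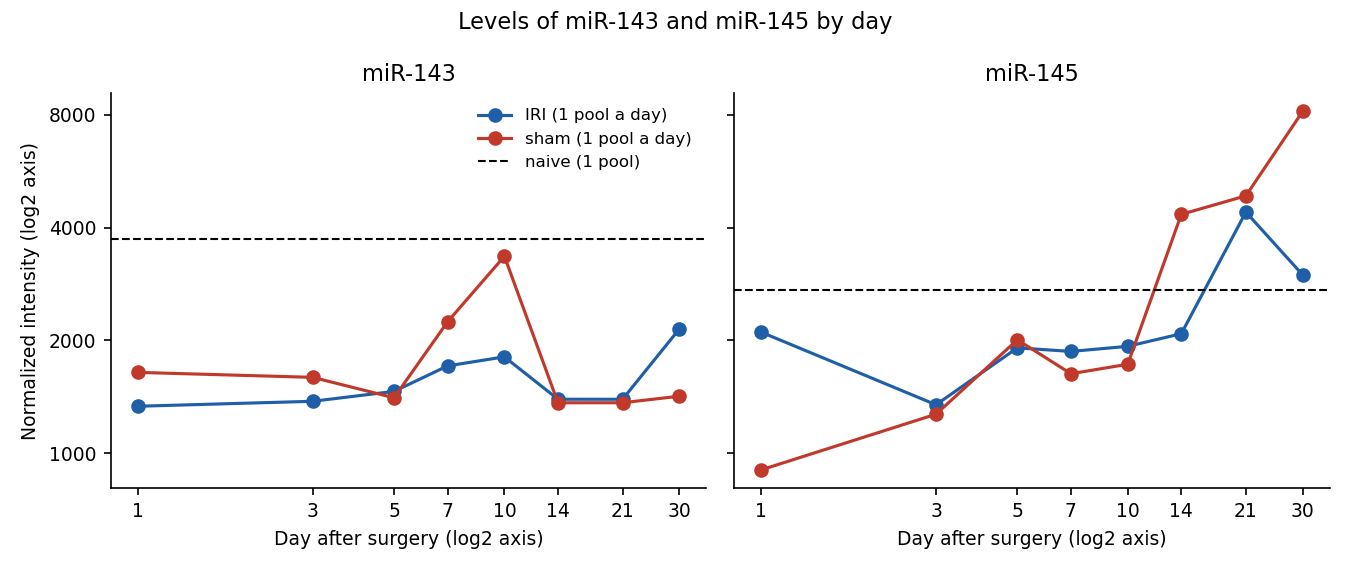
Normalized intensity (log2 axis) of miR-143 and miR-145 against the day after surgery (log2 axis), with 1 pool of 3 mice per point, blue for IRI, red for sham, and a dashed line at the naive pool. miR-145 in sham kidneys goes from 902 on day 1 to 8169 on day 30, while miR-143 in sham kidneys peaks at 3354 on day 10 and ends at 1419.

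**Figure D2:**
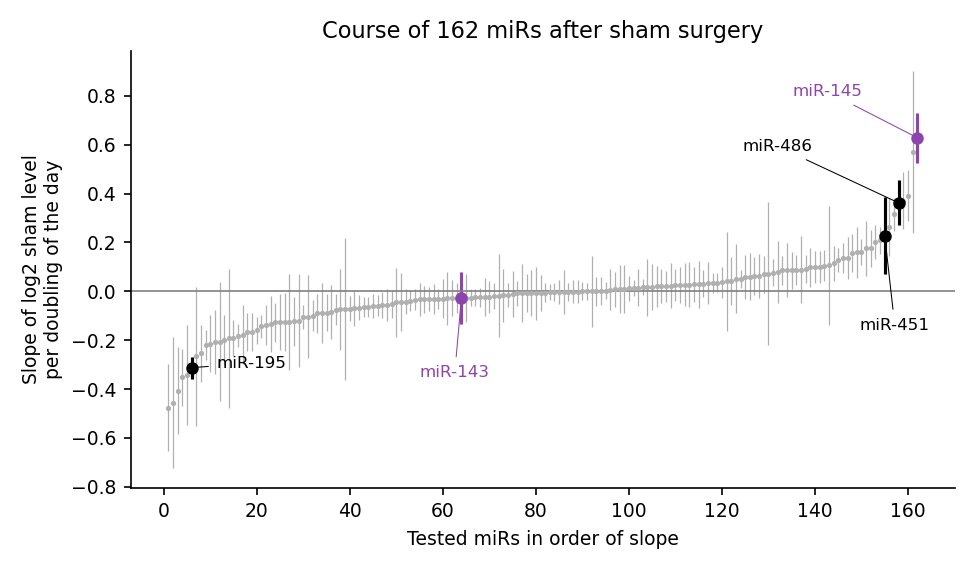
Slope of the log2 sham level per doubling of the day for the 162 tested miRs in order of slope, with bars of 1 standard error. miR-145 (0.63) is the highest and miR-143 (-0.03) lies near 0. miR-195 (-0.31) is the other miR past the threshold, and the erythroid miRs miR-451 (0.23) and miR-486 (0.36) are marked for reference.

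The other miR called after sham surgery was miR-195, a miR of the miR-15/16 seed family known for restraining the cell cycle. It fell from 2977 on day 1 to 1140 on day 30 in sham kidneys, with a slope of -0.31 per doubling (SE 0.05, limma adjusted p = 0.0204). This call was lost on the authors' values (adjusted p = 0.0566), with median scaling (0.489), with no quantile step (0.304), with the variance trend (0.106), with linear days (0.0719), and without day 5 (0.0537), day 14 (0.0546), day 21 (0.0945) or day 30 (0.134). Together the 2 calls made up 1.23% of tested miRs.

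In injured kidneys the course of miR-145 did not pass the test. The IRI level of miR-145 was 2103 (day 1), 1346 (day 3), 1909 (day 5), 1868 (day 7), 1927 (day 10), 2083 (day 14), 4400 (day 21) and 2990 (day 30). Only days 21 and 30 stood above the rest, and the late mean was 1.72-fold above the early mean with overlap (15.4% of tested miRs had all late IRI days above all early ones). The slope was 0.20 per doubling (SE 0.09, 95% interval -0.01 to 0.41, the 18th highest of 162) and did not pass (limma adjusted p = 0.234, exact permutation p = 0.109), against a background of 8.64% of tested miRs called in this arm, 4.32% in each direction. Without day 1 the slope was 0.40 (limma adjusted p = 0.0919), and without day 21 it was 0.12 (limma adjusted p = 0.456).

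miR-143 in IRI kidneys stayed in a narrow band. Its level was 1333 (day 1), 1375 (day 3), 1461 (day 5), 1709 (day 7), 1807 (day 10), 1392 (day 14), 1392 (day 21) and 2145 (day 30). Highest over lowest was 1.61-fold, compared with 2.46-fold for the same miR in sham kidneys. The slope was 0.09 per doubling (SE 0.06, limma adjusted p = 0.36, exact permutation p = 0.144).

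Neither member differed in mean between IRI and sham kidneys beyond the spread of the days. On the 8 shared arrays the log2 IRI/sham ratio of miR-143 was -0.30, -0.21, 0.06, -0.39, -0.89, 0.03, 0.03 and 0.60 in order of the days. IRI was higher on 4 of 8 days, and the mean was -0.14 ± 0.43 (SD, n = 8; 95% interval -0.46 to 0.19; limma adjusted p = 0.486; exact sign-flip permutation p = 0.438). For miR-145 the ratio was 1.22, 0.08, -0.07, 0.20, 0.16, -1.06, -0.14 and -1.45 on the same days. IRI was again higher on 4 of 8 days, with a mean of -0.13 ± 0.82 (SD, n = 8; 95% interval -0.73 to 0.46; limma adjusted p = 0.689; exact sign-flip permutation p = 0.742). The smallest p of the sign-flip test was 0.00781, and 36.4% of tested miRs were called in this comparison (18.5% as higher and 17.9% as lower in IRI kidneys), so 0 of the 2 members stood against a background in which more than 1 miR in 3 passed. The interval for miR-145 still allows a mean difference of -0.73, and without day 30 its mean was 0.06.

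Day by day, the miR-145 ratio was far from 0 at both ends. On day 1 miR-145 was 2.33-fold higher in IRI than in sham kidneys, and on day 30 it was 2.73-fold higher in sham than in IRI kidneys. The standard error from the 6 spots was 0.03 to 0.07 log2 units, which covers the spread within an array and not that between pools. Over the days the ratio fell by 0.43 per doubling (SE 0.10, 95% interval -0.67 to -0.19), the fifth lowest slope of 162. By limma this missed the threshold (adjusted p = 0.0727), while the exact permutation p for this miR alone was 0.0114. The test was passed by 2.47% of tested miRs, with 1.23% in each direction: miR-146a and miR-199a-3p rose, and miR-451 and miR-486 fell. On the authors' values the adjusted p of miR-145 was 0.0493 with the 114 miRs that passed the filter there and 0.0598 with the 162 miRs tested here. With channels scaled to their median it was 0.00875 with all 569 miRs, which then passed the filter, and 0.0665 with the 162. The slope of miR-143 was 0.12 (SE 0.09, limma adjusted p = 0.529, exact permutation p = 0.285). A dye bias of a probe cannot be told apart from its mean IRI/sham ratio, because dyes were never swapped, but a constant bias cancels in a slope.

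**Figure D3:**
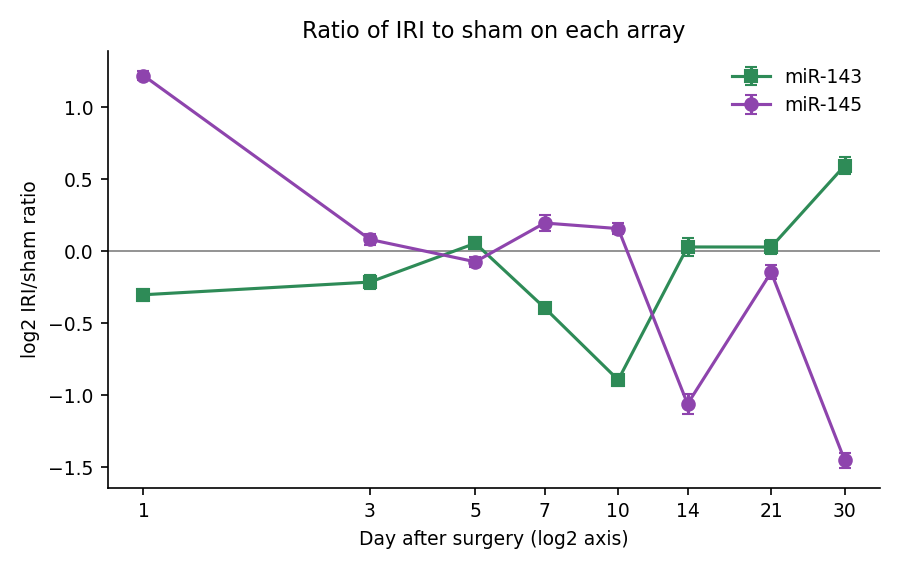
log2 IRI/sham ratio on each shared array against the day (log2 axis) for miR-143 (green squares) and miR-145 (purple circles), with bars of 1 standard error over the 6 spots. miR-145 starts at 1.22 and ends at -1.45, and miR-143 starts at -0.30 and ends at 0.60.

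The 2 members gave no positive correlation past the test. For their IRI/sham ratios the negative Spearman correlation passed, while the Pearson correlation did not. Over the 8 arrays their log2 IRI/sham ratios had a Pearson r of -0.67 (exact permutation p = 0.0622, adjusted 0.187 over 3 relations) and a Spearman rho of -0.83 (exact permutation p = 0.0154, adjusted 0.0461). Leaving out the 2 days farthest from the median gave r = -0.66. In sham kidneys r was -0.43 (exact permutation p = 0.287, adjusted 0.43) and rho -0.62 (exact permutation p = 0.115, adjusted 0.172), and r without the 2 farthest days was -0.83. In IRI kidneys r was 0.16 (exact permutation p = 0.708, adjusted 0.708), rho was 0.02 (exact permutation p = 0.977, adjusted 0.977), and r without the 2 farthest days was -0.15.

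Their divergence was also followed within each sample, as the log2 of miR-145 minus the log2 of miR-143, a comparison added after the values were seen. Only its change over days can be read, since 2 probes need not bind alike. In sham kidneys the difference went from -0.87 on day 1 to 2.53 on day 30, with a slope of 0.66 per doubling (SE 0.22, exact permutation p = 0.0244). Scanner intensities minus the empty spots, with no normalization, gave 0.67 (exact permutation p = 0.0263), and the authors' values gave 0.64 (p = 0.027, exact permutation). In IRI kidneys the slope was 0.11 (SE 0.13, exact permutation p = 0.423). Leaving out 1 day at a time in sham kidneys gave slopes of 0.53 to 0.87 and exact permutation p between 0.00516 and 0.0966. The p missed the threshold without day 1 (0.0556), day 14 (0.0528), day 21 (0.0625) or day 30 (0.0966).

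**Figure D4:**
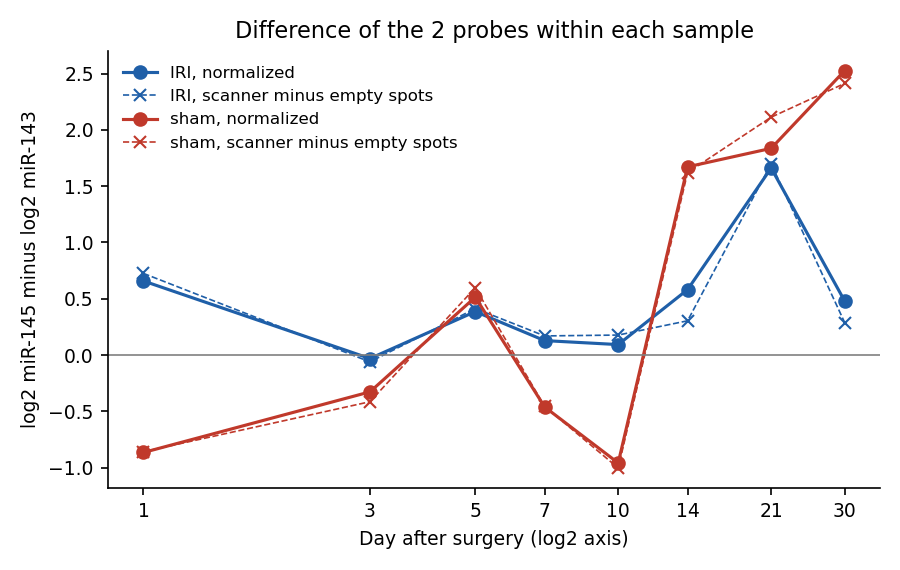
Difference of the log2 values of miR-145 and miR-143 within each sample against the day (log2 axis), blue for IRI and red for sham, with solid lines for normalized values and dashed lines for scanner intensities minus the empty spots. In sham kidneys the difference is -0.96 on day 10 and between 1.67 and 2.53 on days 14, 21 and 30, and the dashed lines follow the same course.

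In the naive pool the normalized level was 3725 for miR-143 and 2720 for miR-145. Every operated sample lay below naive for miR-143: the mean log2 difference was -1.26 in IRI and -1.12 in sham kidneys. For miR-145, 2 of 8 IRI days and 3 of 8 sham days lay above naive, with mean differences of -0.31 and -0.18. The median over all tested miRs was 0.09 to 0.26, so on this scale miR-143 lay below naive also relative to the typical miR. With 1 naive sample in the dimmest channel there is no test, and the direction turned on the scaling. Without quantile normalization the differences of miR-143 were 2.26 and 2.39, above the 0.56 to 1.38 of the median miR, and with median scaling they were -0.20 and 0.06, above the -1.81 to -1.14 of the median miR. On the authors' values the naive level was 3589 for miR-143 and 3518 for miR-145, and sham day 10 (3649) lay above naive for miR-143.

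The miRs whose IRI/sham profile over the 8 arrays was most like that of miR-143 were miR-24 (r = 0.87), miR-26a (0.86), miR-361 (0.83), miR-191 (0.81) and miR-195 (0.79), out of 161 others. miR-24 and miR-26a are both studied in vascular smooth muscle, and miR-195 is the one called as falling in sham kidneys. On the normalized scale miR-24 had the same high sham day as miR-143, with 5485 on day 10 against 1982 to 3092 on the other days. Of the 162 tested miRs, 32 had their highest sham level on day 10, the most of any day. In the order of likeness to miR-143, miR-145 stood in place 157, near the far end. These values describe the profiles; all points share the same arrays.

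For miR-145 the most alike profiles were those of miR-451 (r = 0.92), miR-377 (0.88), miR-805 (0.87), miR-23b (0.86) and miR-486 (0.84), and miR-143 was in place 144. miR-451 and miR-486 are abundant in red blood cells and their precursors, and both were called for a falling IRI/sham ratio over the days. The miR-451 ratio went from 1.81 on day 1 to -2.27 on day 30 (slope -0.78, limma adjusted p = 0.0129) and the miR-486 ratio from 0.74 to -2.13 (slope -0.59, limma adjusted p = 0.0252). miR-377, from the large imprinted miR cluster of Dlk1-Dio3, went from -0.33 to -2.29 (slope -0.29, limma adjusted p = 0.149).

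**Figure D5:**
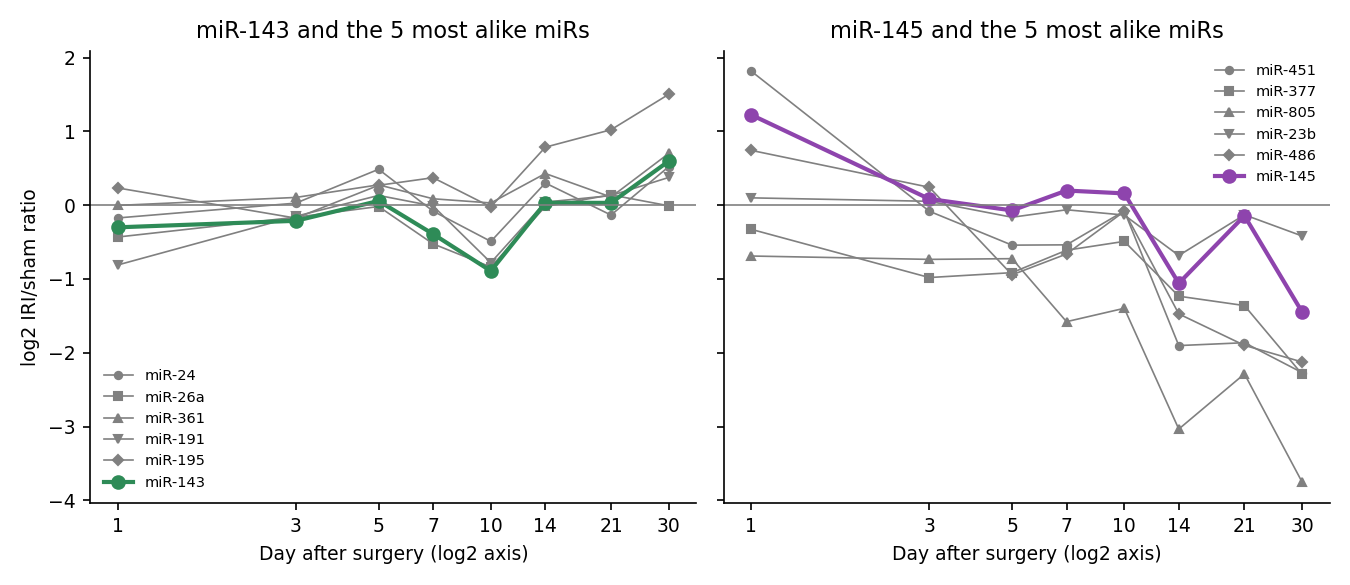
log2 IRI/sham ratio against the day (log2 axis) for miR-143 (green) and miR-145 (purple), each with the 5 miRs of most alike profile in grey. Around miR-143 the grey lines dip on day 10 where it reaches -0.89, and around miR-145 they end below 0 on day 30, down to -3.75 for miR-805.

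The red cell miRs miR-451 and miR-486 had their highest sham levels on day 30, as miR-145 did, and their highest IRI levels on day 1. In sham kidneys the normalized level of miR-451 was 237, 309, 292, 379, 111, 412, 407 and 741 in order of the days, and that of miR-486 was 175, 182, 268, 364, 194, 331, 480 and 658. On day 10 miR-451 was at its lowest. In IRI kidneys miR-451 was highest on day 1 (832), the day of the highest miR-145 ratio, and was between 105 and 291 on all later days. The summed level of the 3 red cell miRs (miR-451, miR-486 and miR-144, the last above background in 1 of 17 samples) was 497 to 646 on early and 837 to 1491 on late sham days. In IRI kidneys the sum was 428 to 1209 on early and 328 to 402 on late days, while miR-145 was not lower on late days. Their sham slopes were 0.23 (limma adjusted p = 0.624) and 0.36 (limma adjusted p = 0.131) for miR-451 and miR-486. The part of blood content in the miR-145 values was not tested.

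Striated muscle miRs were near background and passed no test. Of miR-1, miR-133a, miR-133b and miR-206, 2 were tested and 0 were called, beside 36.4% of all tested miRs for the mean ratio, 2.47% for its slope, 8.64% for the IRI slope and 1.23% for the sham slope. The 4 were above background in 8, 4, 3 and 8 of 17 samples. Their summed level in sham kidneys was 405 to 425 on early and 385 to 405 on late days. miR-126-3p, which marks endothelium, had a sham slope of -0.02 (limma adjusted p = 0.997) and a mean ratio of -0.03 (limma adjusted p = 0.841). No second miR specific to mural cells was on the lists, and in whole kidney RNA fewer cells of a type and less RNA per cell cannot be told apart.

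For 14 names of other miRs studied for the phenotype of smooth muscle cells, 15 array entries were found and 12 were tested. For the mean IRI/sham ratio 4 of the 12 passed as higher in IRI kidneys and 0 as lower, beside 18.5% and 17.9% of all tested miRs, with a median of 0.32 against -0.04 over all tested miRs. The 4 were miR-21 (2.51), which is induced in injured and proliferating cells, miR-146a (1.27), a brake on NF-kB signalling, miR-10a (0.60) and miR-31 (0.59). miR-31 reached the filter of 200 in IRI samples alone, so it was tested only because it was high there. Over the days after sham surgery 0 of the 12 were called as rising and 1 as falling (miR-195), beside 0.617% of all tested miRs in each direction. These shares are miR-145 alone (rising) and miR-195 alone (falling), so the second is no separate background for this list. The slope was above 0 for 2 of the 12 and below 0 for 10, with a median of -0.06 against -0.01 over all tested miRs. miR-221 and miR-222, which favour the proliferating state, had mean ratios of 0.15 and -0.24 (limma adjusted p = 0.337 and 0.151). The list's summed level in sham kidneys was 34368 to 49325 on early and 28821 to 33367 on late days.

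Of the 12 array entries for fibroblast and matrix miRs 10 were tested, and 7 passed as higher in IRI than in sham kidneys with 0 lower, beside 18.5% and 17.9% of all tested miRs (median 1.11 against -0.04 over all tested miRs). The lists overlap: miR-21 is counted here and among the smooth muscle miRs, and miR-155 here and among the leukocyte miRs below. The 7 included miR-199a-3p (1.87), which like miR-214 comes from a fibroblast-rich cluster, miR-146b (1.61), miR-155 (1.52), an inflammatory miR, and miR-214 (1.16). miR-146b and miR-199a-5p reached the filter in IRI samples alone, as did 7 of the 30 miRs called higher in IRI kidneys over the whole array. The 3 that did not pass were miR-29a (-0.18) and miR-29c (-0.06), which lower collagens and other matrix proteins, and miR-34a (0.13), with limma adjusted p of 0.384, 0.848 and 0.563. In IRI kidneys miR-199a-3p and miR-214 also rose over the days, with slopes of 0.41 and 0.46 (limma adjusted p = 0.0132 and 0.0401), so 2 of 10 were called as rising beside 4.32% of all tested miRs. Over the sham days 0 of 10 were called beside 1.23%, and there the slope was 0.02 for miR-199a-3p and 0.37 for miR-214 (limma adjusted p = 0.997 and 0.213). The IRI/sham slope of miR-214 was 0.09 (limma adjusted p = 0.85). The summed level of miR-199a-3p, miR-199a-5p and miR-214 was 2221 to 4724 on early and 7846 to 9832 on late IRI days, and 1443 to 1751 on early and 2045 to 3325 on late sham days.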

How the data were processed

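Each sample was hybridised to a miR array of 569 mouse miRs. The authors deposited spot intensities for each array and a table of processed intensities per miR and sample, normalized between arrays. The scanner and software versions are not given in the sources used here. The spot intensities were background-corrected (normexp, offset 50), averaged over 6 spots, normalized within arrays by loess (span 0.3) and across arrays by quantiles of the mean log2 level. miRs under 200 in every sample were left out, and the test was limma 3.58.1 in R 4.3.3 with Benjamini-Hochberg adjustment over the 162 miRs and a threshold of 0.05. The code was tested on simulated data. The main comparison keeps IRI and sham of an array together, because the labels give both the same sample number. The deviations of same-day samples correlated between -0.06 and 0.71 (median 0.15). One array named its channels A and B only, on day 5; each channel matched the authors' value of its own group (r = 0.998 for IRI and 0.999 for sham) more closely than the other (0.953 and 0.941). Day 10, which the study did not analyse, was kept. The labels give female mice and the methods male. The members, lists and tests were chosen with earlier results of these data known. Named were the members, the 5 most alike miRs for each and the fixed lists. Alternatives were the authors' values, plain subtraction, median scaling, no quantile step, spot medians, a floor, other filters, a variance trend, no replicate block, linear days, upper or lower spots alone, scalings with the tested miRs held, and each day left out.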

Additional observations from a re-analysis of the deposited data

How the results depend on the processing

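The means and slopes of miR-143 and miR-145 kept their direction under all planned settings apart from those named here, and the limits are 1 pool for each group and day and a dim naive channel. The sham slope of miR-145 missed the threshold without the quantile step (0.55, limma adjusted p = 0.304), with values under 200 raised to that floor (0.63, adjusted p = 0.0727) and with no filter (0.63, adjusted p = 0.057). Its slope from the upper spots alone and from the lower spots alone, a split added after seeing the data, was 0.62 and 0.61 (limma adjusted p = 0.0336 and 0.0281). Its IRI/sham slope passed on the authors' values (-0.49, adjusted p = 0.0493), with median scaling (-0.46, adjusted p = 0.00875) and with the filter on the mean signal (-0.43, adjusted p = 0.049). With the tested miRs held at the 162, an alternative added after seeing the data, it missed the threshold on the authors' values (adjusted p = 0.0598) and with median scaling (adjusted p = 0.0665). Without the replicate block, that is with IRI and sham of an array not paired, this slope was -0.43 (adjusted p = 0.139) and 2 miRs passed in place of 4. Of the 4 mean ratios and IRI/sham slopes of the members, which alone were run both ways, none passed with the block or without it. The sham slope of miR-143 was 0.042 on the authors' values.

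Against naive, median scaling gave -0.20 (IRI) and 0.059 (sham) for miR-143 and 0.35 (IRI) and 0.64 (sham) for miR-145, where the median over tested miRs lay between -1.81 and -1.14. With no quantile step the values were 2.26 and 2.39 for miR-143 and 2.82 and 2.95 for miR-145 in IRI and sham, where the median over tested miRs lay between 0.56 and 1.38. The cause was not tested.

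Counts of called miRs moved as follows. For the IRI/sham slope, 4 became 8 on the authors' values, 14 with median scaling, 0 with no filter and 14 with linear days. The number of miRs tested was then 114 on the authors' values and 569 with median scaling, and with the 162 held the counts were 5 and 4. For the sham slope, 2 became 1 on the authors' values, with the floor, with no filter and with the variance trend, 5 with plain subtraction, 0 with no quantile step, and 1 on the authors' values or with median scaling with the 162 held. For the IRI slope, 14 became 9 with plain subtraction, 6 with median scaling, 6 with no quantile step, 2 with the floor and 2 with no filter, and with the 162 held it was 18 on the authors' values and 14 with median scaling. For the mean ratio, 59 became 30 with the floor and 100 with no filter.

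Leaving out 1 day at a time gave mean ratios of -0.24 to -0.03 for miR-143 and -0.33 to 0.055 for miR-145 (above 0 only without day 30), IRI/sham slopes of 0.03 to 0.18 and -0.50 to -0.35, IRI slopes of 0.04 to 0.12 and 0.12 to 0.40, and sham slopes of -0.083 to 0.010 (above 0 without days 21 and 30) and 0.54 to 0.79. The counts ranged from 26 to 59 for the mean ratio, 0 to 19 for the IRI/sham slope, 2 to 22 for the IRI slope and 0 to 4 for the sham slope. The correlation of the members ranged from -0.82 to -0.41 for ratios, -0.18 to 0.63 in IRI and -0.55 to -0.37 in sham kidneys. Differences from naive ranged from -1.33 to -1.23 and -1.26 to -1.08 for miR-143 and from -0.45 to -0.21 and -0.43 to 0.02 for miR-145, in IRI and sham kidneys. The slope of miR-145 minus miR-143 ranged from 0.53 to 0.87 in sham and -0.0043 to 0.30 in IRI kidneys.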

Other observations

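Of the 9 array entries for tubule miRs 7 were tested, and 6 passed as lower in IRI than in sham kidneys with 0 higher, beside 17.9% and 18.5% of all tested miRs (median -0.51 against -0.04 over all tested miRs). Among the 6 were miR-200a (-1.11) and miR-192 (-0.88), both miRs of epithelial cells, and the one that did not pass was miR-30a (-0.32, limma adjusted p = 0.0748). In IRI kidneys miR-200a, miR-200b and miR-429, which belong to 1 family of epithelial miRs, also fell over the days, with slopes of -0.48, -0.18 and -0.37 (limma adjusted p = 0.0199, 0.049 and 0.00633), beside 4.32% of all tested miRs called as falling there. Their sham slopes were -0.21, -0.07 and -0.14 (limma adjusted p = 0.6, 0.674 and 0.213).

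Of the 5 array entries for leukocyte miRs 3 were tested, and all 3 passed as higher in IRI than in sham kidneys, beside 18.5% of all tested miRs (median 0.98 against -0.04 over all tested miRs): miR-155 (1.52), miR-223 (0.98), a myeloid miR, and miR-150 (0.92), a lymphocyte miR whose level in IRI kidneys rose over the days with a slope of 0.42 (limma adjusted p = 0.0484). miR-223 reached the filter of 200 in IRI samples alone, so it was tested only because it was high there. In sham kidneys the summed level of the 5 entries was 856 to 1176 on early and 839 to 1176 on late days.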
